A study of Mus musculus with 4 samples.

Results

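The transcripts described here are those that GENCODE mouse release M21 types as nonsense_mediated_decay (NMD), matched to the quantified transcripts by transcript identifier without its version. The deposited files listed 6197 of them among 125182 transcripts that could be joined to a gene, and they belonged to 3985 parent genes, of which 2615 (65.6%) held 1 such transcript and none more than 13. The choice used the annotation alone and no measured value. The RNA came from naive CD4 T cells of mice, sorted as TCRb+ CD4+ CD25- CD62L-high CD44-low, and was sequenced as total RNA after removal of rRNA. The wild-type group (WT, 2 libraries) consisted of littermates with the genotype Btg1f/f Btg2f/f, and the double-knockout group (DKO, 2 libraries) had the genotype Btg1f/f Btg2f/f-CD4-Cre. Both groups therefore carried loxP-flanked Btg1 and Btg2, and only the DKO group carried Cre under Cd4 regulatory sequences, which act from the thymic T cell precursors onwards, so that recombination can begin before the naive stage. Btg1 and Btg2 encode adaptors of the CCR4-NOT deadenylase, and the series title places the question in mRNA decay and T cell quiescence. The labels give no ages and name mice in WT-DKO pairs, so p-values measure the spread between these libraries.

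NMD is a translation-dependent pathway that removes RNAs on which a ribosome stops too early. An exon junction complex left downstream of a stop codon recruits UPF2 and UPF3 proteins, the kinase SMG1 phosphorylates the helicase UPF1 at the stalled terminating ribosome, and SMG5 and SMG6 then act in the decay of the RNA. Splicing regulators and ribosomal proteins are known for isoforms with a premature stop that lower the output of their own gene, and CCR4-NOT is a deadenylase that shortens poly(A) tails.

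Annotation as an NMD target rests mostly on the position of the stop codon. In 99.4% of the 6197 transcripts the stop lay more than 50 bases before the last exon junction, with a median distance of 327 bases (quartiles 157 and 717) and a median of 3 junctions after it. Their median length was 1197 bases, against 1831 bases for protein_coding and 869 bases for retained_intron transcripts, and the median coding sequence had 303 bases. The stop codon itself was TGA in 57.6%, TAA in 22.7% and TAG in 19.8%. In 3585 transcripts (57.9%) the stop lay in sequence that other transcripts of the gene read as coding sequence, where it is read in another frame or across another junction. In 1985 (32.0%) it lay outside the exons of every coding transcript of the gene, the class that holds the poison exons and retained segments. Whether it lay in an intron or beyond the ends of those transcripts was not checked. In 442 (7.13%) the stop was at the same position as that of a coding transcript of the gene, which need not be its main form.

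The ends of the open reading frames of transcripts on which the results turn are printed below, because the early stop is the feature that places them in the class. Each line gives the last 30 bases of the coding sequence, 5′ to 3′, from the GENCODE M21 transcript, with the stop codon in capitals. The first 6 passed the test of transcript usage described further on, and the others were abundant transcripts of genes for RNA decay, translation or T cell surface receptors.
Il6st-207: accatccagaccaccaagtttctggtaTAA
Cux1-213: gcagagcgagctggacagcctgcgcgcTGA
Ahcyl1-203: gctctgtgttccagccatgaatgtcaaTGA
Crebzf-207: tcgtctcttaaaattttcttttttaggTGA
Tubgcp3-203: cctatacaaagacaggggacccctacaTGA
Bzw1-203: tgccatgttgactggtgtccttctggcTAA
Smg1-204: atgacagagaccgaagactggctactgTAA
Cnot1-216: tacacgccattccacccactctggccaTGA
Rpsa-206: tggccgcttcacacctgggaccttcacTAA
Il4ra-205: tggtacaacccaagtaatgaaaatctgTGA
Itgb2-204: tcggggttcctgcaactgtggcaaatgTAG
Itgb2-205: aagctggtaagagctgcgtgggtcaccTGA

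On GRCm38 these stop codons lay at chr13:112493617-112493619 (plus strand, Il6st-207), chr5:136254119-136254121 (minus, Cux1-213), chr3:107670264-107670266 (minus, Ahcyl1-203) and chr7:90444313-90444315 (plus, Crebzf-207). Those of the transcripts that were lower in DKO lay at chr8:12648722-12648724 (minus, Tubgcp3-203) and chr1:58400781-58400783 (plus, Bzw1-203). Smg1-204 stopped at chr7:118210780-118210782 (minus), Cnot1-216 at chr8:95736349-95736351 (minus) and Rpsa-206 at chr9:120130192-120130194 (plus). Il4ra-205 stopped at chr7:125571951-125571953 (plus), and the pair of Itgb2 transcripts at chr10:77560178-77560180 (Itgb2-204, plus) and chr10:77542508-77542510 (Itgb2-205, plus). The stops of Il4ra-205 and Itgb2-205 lay outside the exons of every coding transcript of their gene. That of Crebzf-207 lay in exon sequence that is non-coding in the coding transcript. The other 9 lay inside coding sequence of a coding transcript.

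The libraries held 14970076 and 13889894 (WT) and 16567226 and 17827631 (DKO) estimated counts. Intervals from counting alone are not given, since the split of reads among isoforms adds to the error. Btg1 had 7378 and 5443 counts in WT, against 103 and 125 in DKO, and Btg2 had 1295 and 1067 against 5 and 7. The groups lay far apart for both targets, and neither gene has an NMD-annotated transcript. The implied mean fragment length was 121.8 ± 2.80 bases for the WT and 137.8 ± 6.14 bases for the DKO libraries (SD, n = 2 each). Marker levels are given as CPM of library totals, without the TMM scaling of the tests below. Scaling by library totals raises the median log2 fold change of all transcripts, as given further on. The summed level of 8 naive CD4 T cell markers was 2650 and 2843 CPM in WT and 3389 and 3971 CPM in DKO. The regulatory T cell markers Foxp3, Il2ra and Ikzf2 summed to 7.43 and 7.57 CPM in WT, against 19.98 and 38.9 CPM in DKO. Cd8a and Cd8b1 summed to 6.69 and 6.27 against 8.81 and 16.0 CPM, and neither sum overlapped. The latter sum was nearly all Cd8b1. Cd8a alone had 6 and 1 counts in WT, against 1 and 5 in DKO, with overlap. B cell markers summed to between 0.0720 and 1.74 CPM and myeloid markers to between 2.55 and 5.68 CPM, while Ncr1 and Pf4 were at 0 in every library. Fewer cells of a type and less RNA per cell cannot be told apart in bulk RNA, and the part of these differences in the results below was not tested.

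Most of the 6197 transcripts were rare in these cells. Of them, 2186 were at 0 in all 4 libraries, 1359 were above 0 in every library, 1473 had a mean of at least 10 estimated counts, 271 of at least 100 and 17 of at least 1000. Their sequence overlaps that of the other transcripts of the gene: the median transcript had 3.98% of its 31-base words to itself, and 898 (14.5%) had at least 20%. A word of 31 bases is the length kallisto commonly uses to place a read. Among transcripts with a mean of at least 20 counts, 19.8% of 997 had a rounded count of 0 in at least 1 library, against 9.47% of protein_coding transcripts. That share was 24.0% of 674 where under 5% of the words were unique, 14.1% of 205 between 5 and 20%, and 5.08% of 118 at 20% or more.

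A single transcript held most of the counts. Lars2-209, an NMD-annotated form of the gene for mitochondrial leucyl-tRNA synthetase, had 1031930 and 606495 counts in WT, against 1376310 and 1337170 in DKO, which was 82.1 to 88.8% of the counts of all NMD-annotated transcripts and at least 99.96% of Lars2. The DKO counts were the higher ones, and the WT libraries differed from each other more than the DKO libraries did. Where these reads came from was not tested, and sums are given below with and without Lars2. With it, NMD-annotated transcripts took 7.90 and 5.32% of all counts in WT, against 9.35 and 8.64% in DKO, and 52.8, 44.3, 53.6 and 48.0% of the counts of their parent genes in the same order. Without it, they took 1.08 and 0.997% of all counts in WT, against 1.14 and 1.23% in DKO.

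Within the parent genes, without Lars2, the NMD-annotated share was slightly lower in DKO. It was 12.5 and 12.5% of the parents' counts in WT, against 11.5 and 10.9% in DKO, a difference of −1.34 percentage points (12.5 ± 0.021 against 11.2 ± 0.421, SD, n = 2 each). Both DKO libraries lay below both WT libraries, and the exact two-sided permutation test gave its smallest possible p with 2 against 2, 0.333. With each library left out in turn the difference stayed between −1.63 and −1.04 points. On TPM, which is scaled for length, the shares were 18.9 and 19.3% in WT, against 17.3 and 16.1% in DKO. Without the ribosomal protein genes and Lars2 the shares were 10.4 and 9.86% against 9.83 and 9.56%, a difference of −0.46 points with a pooled SD of 0.319.

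The other transcript types of the same parent genes varied more between the WT libraries. protein_coding transcripts took 76.2 and 80.3% of the parents' counts in WT, against 81.3 and 80.8% in DKO, and retained_intron transcripts 9.04 and 5.64% against 5.49 and 6.43%. The first WT library was low in the coding share and high in the retained_intron share, and the groups overlapped for retained introns. The DKO libraries differed by about as much in the coding as in the NMD-annotated share.

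**Figure D1:**
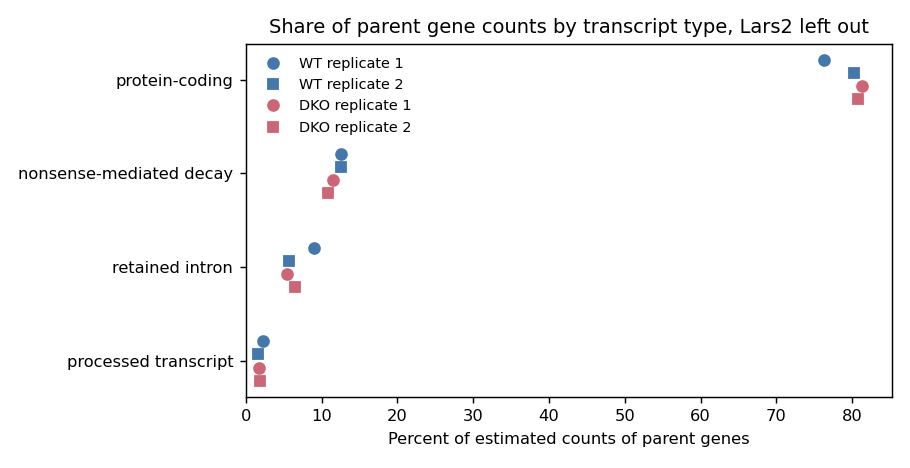
Percent of the estimated counts of the parent genes held by each transcript type (x axis) in each library, with Lars2 left out. Blue marks are WT and red marks DKO libraries, and circles and squares are replicates 1 and 2. The NMD-annotated share lies at 12.5% in both WT libraries and at 11.5 and 10.9% in the DKO libraries, and the retained_intron shares of the groups overlap.

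Gene by gene the summed NMD-annotated share was lower in DKO somewhat more often than higher. Over 2651 parent genes with a mean of at least 20 counts, the median difference of the summed NMD-annotated share, DKO minus WT, was 0.0 percentage points (quartiles −2.64 and 1.57), with 40.1% of the genes above 0 and 46.3% below. The rest were at exactly 0, so the median alone says little about direction. The same median was 1.21 points for protein_coding transcripts and −0.66 points for retained_intron transcripts. The share differed by at most 5 points in 1862 genes (70.2%), was more than 20 points higher in DKO in 48 and more than 20 points lower in 87. Over 2653 parent genes with that mean, the median NMD-annotated share was 3.45 and 2.38% in WT, against 2.92 and 3.05% in DKO. Many genes therefore had too low a share to fall by more than 5 points. Single transcripts also varied between libraries of 1 group: over the 997 NMD-annotated transcripts with a mean of at least 20 counts, the median absolute difference in share was 6.37 points between the WT libraries and 4.16 points between the DKO libraries.

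**Figure D2:**
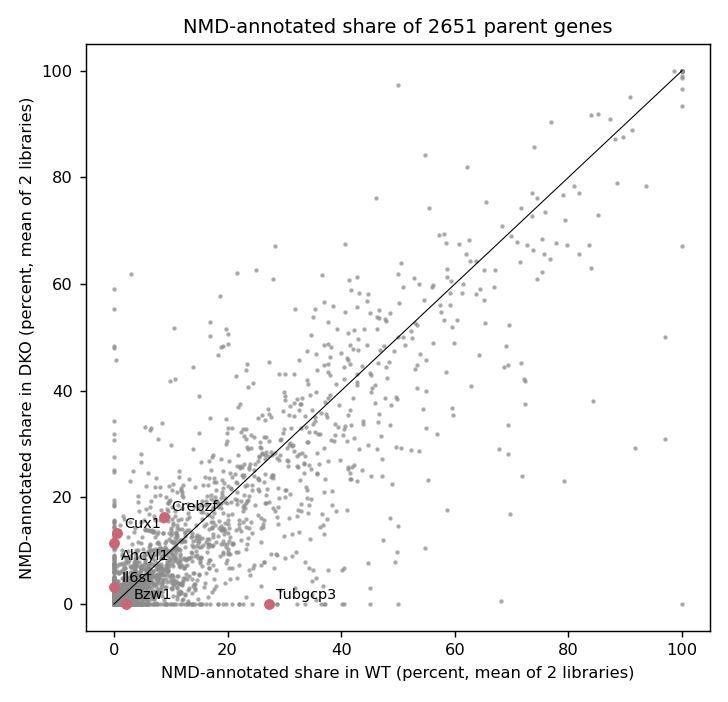
NMD-annotated share of each of 2651 parent genes in WT (x axis) and DKO (y axis), in percent of the gene's estimated counts as the mean of 2 libraries, with the line of equal shares. Red points are the parents of 6 of the 7 transcripts that passed the usage test. Most genes lie near the origin or along the line, with 1862 within 5 percentage points of it.

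The level test compared each transcript's counts between genotypes, as log2 fold change of DKO against WT after TMM scaling. Of 1528 NMD-annotated transcripts with enough counts, 0 were higher and 0 lower at an adjusted p under 0.05 by edgeR's quasi-likelihood F test, Benjamini-Hochberg adjusted over 27379 transcripts. Over all transcripts 0.0% were called higher and 0.0073% lower. At an unadjusted p under 0.05, 44 (2.88%) were higher and 45 (2.95%) lower, against 2.62 and 2.39% of all transcripts. The groups did not overlap in 253 (16.6%) with higher and 268 (17.5%) with lower DKO counts, against a background of 18.1 and 16.3%. DESeq2 called 8 higher and 12 lower, against 0.409 and 0.577% of all transcripts, and 16 of these 20 had rounded counts of 0 in both libraries of a group. The median log2 fold change was −0.09, against −0.02 over all transcripts, 0.06 for protein_coding and −0.24 for retained_intron transcripts. Transcripts varied far more than genes, with a biological coefficient of variation of 0.629 against 0.220.

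The usage test asked whether a transcript's share of its gene differed, which takes out the level of the gene and the scaling of the library. Of 1464 NMD-annotated transcripts tested, 4 rose and 3 fell in share in DKO by edgeR's quasi-likelihood usage test, with Benjamini-Hochberg adjustment over 21110 transcripts. The percentages called over all transcripts were 0.128 higher and 0.123 lower, against 0.273 and 0.205% here. At an unadjusted p under 0.05, 36 (2.46%) were higher and 29 (1.98%) lower, beside 1.69 and 1.2% of all transcripts. Groups did not overlap in 234 (16.0%) higher and 272 (18.6%) lower shares, beside 16.0 and 15.7% of all transcripts. The median log2 change in usage was −0.11, against −0.02 over all transcripts and −0.25 for retained_intron transcripts. When the NMD-annotated transcripts of each gene were summed, 0 of 1289 parent genes passed in either direction (0.0% each), with 34 (2.64%) higher and 42 (3.26%) lower at an unadjusted p under 0.05, and limma called 0 higher and 2 lower. With the replicate number as a block, 0 of the 7 single transcripts passed; the labels mention pairs of mice but do not tie the numbers to them.

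All 7 transcripts that passed were at or near 0 in both libraries of 1 group. They passed the filter on low counts only through the group in which they were high. Folds are given against a floor of 3 counts over the group. They are lower bounds for counting error only and leave out the error of splitting shared reads. Il6st-207 comes from the gene for gp130, the shared signalling receptor of the IL-6 family, and had 0 and 0 counts in WT, against 88.6 and 70.0 in DKO. That was 3.999 and 2.38% of Il6st in DKO, a share at least 37.8-fold higher (adjusted p = 0.0049 by edgeR's quasi-likelihood F test, Benjamini-Hochberg adjusted). The main coding transcript, Il6st-203, had 992 and 669 counts in WT, against 1101 and 1377 in DKO. The open reading frame of Il6st-207 has 1041 bases with its TAA stop, which lies 1015 bases and 8 junctions before the last junction.

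Cux1-213, of the gene for a homeodomain transcription factor, had 0 and 0 counts in WT, against 120 and 114 in DKO, or 16.3 and 9.35% of the gene in DKO. The share was at least 51.9-fold higher (edgeR adjusted p = 0.024, Benjamini-Hochberg). None of its 31-base words was unique to it (0.0%), so its count rests on the split of shared reads. Ahcyl1-203, of the gene for the IP3 receptor-binding protein IRBIT, had 0.035 and 0 counts in WT, against 54.3 and 53.2 in DKO, 13.3 and 9.54% of the gene. Its share was at least 23.8-fold higher (edgeR adjusted p = 0.030, Benjamini-Hochberg). Crebzf-207, of a gene for a bZIP protein, also had 0.0% unique words and was at 0 in both WT libraries, with 39.3 and 60.4 counts in DKO. It made up 8.49 and 10.7% of Crebzf in DKO, at least 21.9-fold more (edgeR adjusted p = 0.041, Benjamini-Hochberg).

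Of the 3 that fell, 2 are described. Tubgcp3-203, of the gene for a subunit of the γ-tubulin ring complex that nucleates microtubules, had 71.2 and 49.5 counts in WT, against 0 and 0 in DKO, from 22.3 and 31.3% of the gene. Its share was at least 51.0-fold lower (edgeR adjusted p = 0.027, Benjamini-Hochberg). Bzw1-203, of the gene for a regulator of translation start, had 29.8 and 21.5 counts in WT, against 0 and 0 in DKO, from 2.29 and 1.97% of the gene, at least 24.8-fold lower (edgeR adjusted p = 0.039, Benjamini-Hochberg).

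The parent genes of these 6 did not pass the gene-level test. Their log2 fold changes were −0.11 (Il6st), −0.03 (Cux1), −0.02 (Ahcyl1), 0.01 (Crebzf), −0.24 (Tubgcp3) and −0.08 (Bzw1), with edgeR adjusted p between 0.871 and 0.993. The calls did not hold when a DKO library was left out, which leaves 1 library in that group, assumed to vary like the WT pair: without either, 0 of the 7 passed, and the shared calls were 1 without the first WT library, which is none of the 6 described, and 3 without the second, with Il6st-207 and Tubgcp3-203 among them. limma's usage test called 0 NMD-annotated transcripts in either direction, beside 0.00947% of all transcripts called higher and 0.0189% lower. At an unadjusted p under 0.05 by limma, 43 (2.94%) were higher and 65 (4.44%) lower, against 3.37 and 3.34% of all transcripts.

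**Figure D3:**
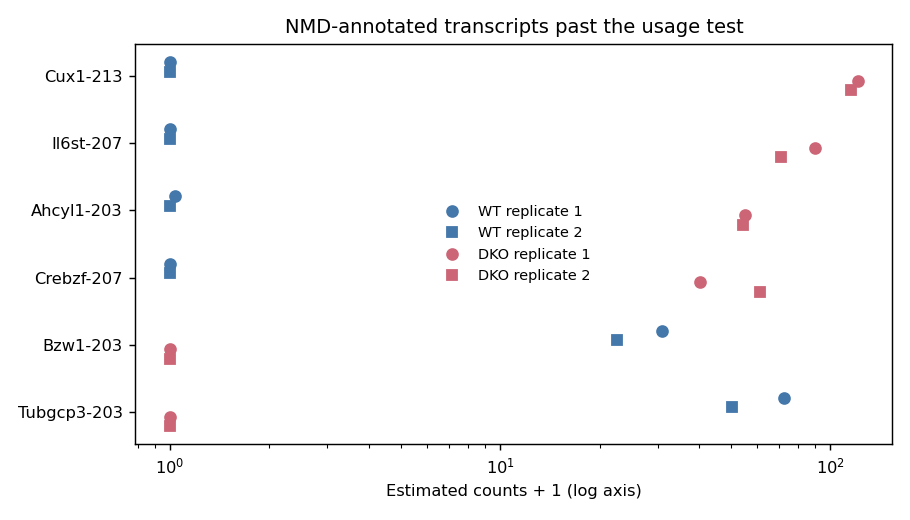
Estimated counts plus 1 (x axis, log scale) of 6 of the 7 NMD-annotated transcripts that passed the usage test, in each library. Blue marks are WT and red marks DKO libraries, and circles and squares are replicates 1 and 2. Each transcript sits at or near 0 counts in both libraries of 1 group, with 21.5 to 120 counts in the libraries of the other.

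Of the transcripts with the next smallest unadjusted p, U2surp-208 comes from the gene for a protein of the U2 snRNP. It had 0.58 and 25.5 counts in WT, against 228 and 210 in DKO, 0.056 and 3.18% against 19.1 and 13.8% of the gene. The log2 change in usage was 3.40 (SE 0.81, edgeR adjusted p = 0.135, Benjamini-Hochberg), and without the second WT library the edgeR adjusted p was 0.0057 (range over its alternatives 0.0057 to 0.998). Klhl18-202, of a gene for a ubiquitin ligase adaptor, had 62.0 and 20.8 counts in WT, against 0 and 0 in DKO (edgeR adjusted p = 0.064, Benjamini-Hochberg). Chd9-203, of a chromatin remodeller gene, had 63.4 and 104 counts in WT, against 4.10 and 0 in DKO. Its groups lay apart, at 7.87 and 18.3% against 0.51 and 0% of the gene (edgeR adjusted p = 0.40, Benjamini-Hochberg). Without the first WT library the edgeR adjusted p of Chd9-203 was 0.021 (range over its alternatives 0.021 to 1.0).

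The 2 NMD-annotated transcripts of Itgb2, the gene for the β2 integrin chain of LFA-1, went in opposite directions. Itgb2-204 made up 13.8 and 13.5% of the gene in WT, against 3.16 and 6.73% in DKO, a log2 change in usage of −1.45 (SE 0.46). Itgb2-205, whose stop lies outside the exons of every coding transcript, made up 1.21 and 2.83% in WT. In DKO it made up 5.47 and 6.95%, a log2 change of 1.56 (SE 0.63). Neither passed (edgeR adjusted p = 0.639 and 1.0, Benjamini-Hochberg). Their sum was 15.0 and 16.3% in WT, against 8.62 and 13.7% in DKO, lower in each DKO library than in either WT library.

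Some NMD-annotated transcripts held a large part of their gene's counts in these estimates. Rpsa-206, from the gene for the ribosomal protein SA, had 12308 and 16401 counts in WT, against 15564 and 16306 in DKO, and its share was 61.8 and 61.2% against 59.8 and 60.2%. Rpl13a-205, of another ribosomal protein gene, held 38.2 and 36.9% of its gene in WT, against 31.1 and 25.3% in DKO. In both the DKO shares lay below the WT shares, by 1.53 and 9.33 points, and the edgeR adjusted p of usage was 1.0 in each (Benjamini-Hochberg). Rps19-205 held 27.3 and 31.2% against 28.9 and 32.6%, with overlap. Eef1b2-205, from the gene for a subunit of the elongation factor that recharges eEF1A, held 38.7 and 43.4% in WT, against 46.7 and 46.5% in DKO.

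Outside translation, the most abundant were Hnrnpu-206, Dgka-203, Kbtbd11-202 and Smg1-204. Hnrnpu-206, of a nuclear RNA-binding protein gene, held 68.5 and 76.3% in WT, against 77.5 and 75.8% in DKO. Dgka-203, of the diacylglycerol kinase α gene that dampens T cell receptor signalling, held 23.0 and 31.5% against 31.5 and 29.7%. Kbtbd11-202 held 48.8 and 57.2% against 54.1 and 51.1%. The groups overlapped in these 3, and the SD of the WT shares exceeded the difference of the means.

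Transcripts of the ribosomal protein genes went together in level. The fixed list of 81 cytosolic ribosomal protein genes has 23 NMD-annotated transcripts in 18 genes, and all 18 transcripts tested had a log2 fold change below 0, with a median of −0.68 against −0.02 over all transcripts, and 17 of 18 were below 0 when scaled by library totals (median −0.36). None passed the level test. In share of the gene, the groups did not overlap in 8 (44.4%, lower) and 0 (higher), beside 15.7% of all transcripts lower and 16.0% higher, and the median log2 change in usage was −0.33. Pooled, they took 28.8 and 27.5% of their parents' counts in WT, against 25.7 and 24.7% in DKO, and without Rpl13a 26.2 and 25.5% against 24.4 and 24.1%. They held 26.1 and 32.8% of the counts of NMD-annotated transcripts other than Lars2-209 in WT, against 23.2 and 19.7% in DKO.

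SR proteins are splicing factors with arginine-serine domains, whose genes carry ultraconserved poison exons. Their 15 NMD-annotated transcripts took 15.2 and 16.1% of the parents' counts in WT, against 16.8 and 14.2% in DKO, with overlap. Of 8 tested, 1 was higher and 3 lower without overlap (12.5 and 37.5%, beside 16.0 and 15.7% of all transcripts), and 0 passed. Srsf3-201 had 437 and 334 counts in WT, against 656 and 741 in DKO, and held 44.5 and 43.5% of Srsf3 against 54.0 and 49.3%. Both DKO shares of Srsf3-201 were above both WT shares, a log2 change in usage of 0.23 (SE 0.27). Srsf6-201 went the other way, at 34.3 and 43.0% against 32.8 and 28.5%, and Tra2b-206 overlapped, at 31.5 and 41.0% against 37.8 and 26.2%. The quantified lengths of Srsf3-201 and Tra2b-206 differ from those in M21, the release that gives their type and stop. Without Srsf3 the pooled share of the list was 11.97 and 12.6% against 11.4 and 9.11%.

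The 65 other splicing regulators had 99 NMD-annotated transcripts in 45 genes. The pooled share was 13.7 and 14.2% in WT, against 15.6 and 15.1% in DKO, a difference of 1.40 points without overlap, and 0.89 points without Hnrnpu. Of 54 tested, 13 were higher and 5 lower without overlap (24.1 and 9.26%, beside 16.0 and 15.7% of all transcripts), and 0 passed. The median log2 change in usage was 0.03, with 25 of 54 below 0. Khdrbs1-202, from the gene for the signalling-responsive splicing factor SAM68, had 712 and 843 counts in WT, against 1317 and 1482 in DKO. It made up 41.3 and 47.9% of Khdrbs1 against 58.4 and 55.2%, without overlap, and 26.8% of its words were unique. The log2 change in usage of Khdrbs1-202 was 0.34 (SE 0.24, edgeR adjusted p = 1.0, Benjamini-Hochberg). Ddx5-208, of an RNA helicase gene, varied within both groups, at 12.5 and 6.75% against 6.82 and 11.8%.

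Of the 77 T cell genes, 9 had a total of 11 NMD-annotated transcripts. Their pooled share was 8.79 and 8.85% in WT, against 7.34 and 7.36% in DKO, a difference of −1.47 points (pooled SD 0.028). Without Foxp1 it was 10.5 and 9.84% against 8.08 and 8.37%, with SDs of 0.466 and 0.203, so the small SD rested on that gene. Of 8 tested, 1 was higher and 4 lower without overlap (12.5 and 50%, beside 16.0 and 15.7% of all transcripts), and 0 passed. Il4ra-205, from the gene for the IL-4 receptor α chain, was the largest, with 1176 and 1048 counts in WT, against 1553 and 1998 in DKO. Its share was 62.3 and 66.5% in WT, against 59.3 and 58.7% in DKO, lower without overlap, with a log2 change in usage of −0.13 (SE 0.29). Itgb2-204 and Itgb2-205, described above, belong to the same list.

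**Figure D4:**
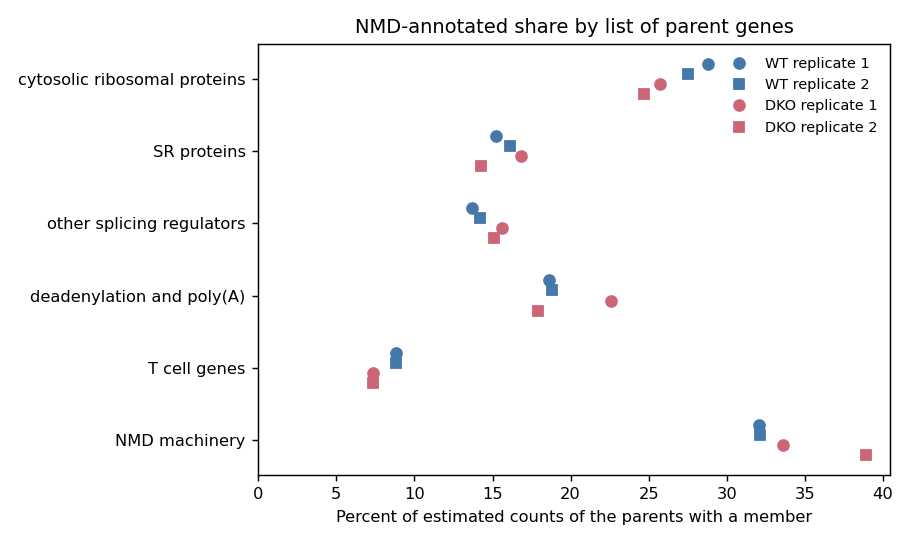
NMD-annotated share (x axis, percent of the estimated counts of the parent genes with such a transcript) for 6 lists of parent genes in each library. Blue marks are WT and red marks DKO libraries, and circles and squares are replicates 1 and 2. The DKO marks lie below the WT marks for ribosomal protein and T cell genes and above them for other splicing regulators and NMD machinery, and they overlap for SR proteins and for deadenylation and poly(A) genes.

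BTG1 and BTG2 act through deadenylation, and 10 genes of the fixed deadenylation and poly(A) list had 22 NMD-annotated transcripts. Pooled, these took 18.6 and 18.8% in WT, against 22.6 and 17.9% in DKO, with overlap. Of 13 tested, 1 was higher and 3 lower without overlap (7.69 and 23.1%, beside 16.0 and 15.7% of all transcripts), and 0 passed. Cnot1-216, the 1 that was higher, comes from the gene for the scaffold of CCR4-NOT and had 547 and 416 counts in WT, against 802 and 1062 in DKO. Its share of Cnot1 was 24.2 and 23.9% in WT, against 30.6 and 29.3% in DKO, without overlap. The log2 change in usage was 0.25 (SE 0.28), and by edgeR's quasi-likelihood F test, Benjamini-Hochberg adjusted the adjusted p was 1.0. Papola-214, of the nuclear poly(A) polymerase gene, held 47.9 and 48.1% against 52.4 and 45.6%. Pan3-208, of a gene for a subunit of the PAN2-PAN3 deadenylase, held 16.5 and 27.1% against 32.9 and 19.8%, and both overlapped.

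The NMD machinery itself was listed with 26 genes, all of them tested at the gene level. By edgeR's quasi-likelihood F test (Benjamini-Hochberg adjusted), 0 rose and 0 fell, against 0.0544% of all genes higher and 0.07% lower. At an unadjusted p under 0.05, 2 were higher and 0 lower, against 3.79 and 4.38% of all genes. Counts scaled for depth did not overlap in 8 higher (30.8%) and 7 lower (26.9%), beside 19.8 and 18.8% of all genes. The helicase gene Upf1 had a log2 fold change of 0.05 (SE 0.13), the kinase gene Smg1 −0.14 (SE 0.15), Smg5 −0.25 (SE 0.14) and Upf3b 0.02 (SE 0.16). The 2 with an unadjusted p under 0.05, named after their values were seen, were Pnrc2, a decapping cofactor that binds UPF1, and Ncbp2, a cap-binding protein. Pnrc2 had 440 and 448 counts in WT, against 939 and 1148 in DKO, a log2 fold change of 0.62 (SE 0.15, edgeR adjusted p = 0.216, Benjamini-Hochberg), and Ncbp2 had 0.52 (SE 0.23).

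Within this list 4 genes had 6 NMD-annotated transcripts, 3 of them in Magohb. Smg1-204 alone was abundant, with 1681 and 1272 counts in WT, against 1770 and 2814 in DKO, and held 41.0 and 41.3% of Smg1 against 42.8 and 48.8%. Both DKO shares were above both WT shares, a log2 change in usage of 0.15 (SE 0.28, edgeR adjusted p = 1.0, Benjamini-Hochberg). Its reading frame ends after 178 annotated coding bases with 59 junctions behind the stop, and 0.223% of its words are unique. Smg5-202 had 8.28 and 7.46 counts in WT, against 0 and 1.66 in DKO, and Smg6-202 had 5.44 counts in 1 DKO library and 0 in the others. Without Smg1 the pooled share of the list was 0.895 and 1.27% in WT, against 0.0884 and 0.478% in DKO, lower in place of higher.

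Pooled shares were also taken by the position of the stop. NMD-annotated transcripts whose stop lies in coding sequence of a coding transcript took 12.4 and 12.8% of their parents' counts in WT, against 11.1 and 10.1% in DKO, a difference of −1.93 points without overlap (Lars2 left out). Those whose stop lies outside the exons of every coding transcript took 7.24 and 6.71% against 6.57 and 6.72%, with overlap. Those that share the stop of a coding transcript took 10.5 and 11.6% against 11.9 and 11.4%, also with overlap. The median log2 change in usage of these 3 classes was −0.13 (826 transcripts), −0.06 (501) and −0.14 (113). The 100 transcripts whose stop lies in exon sequence that is non-coding in a coding transcript had a higher pooled share in DKO. It was 14.9 and 16.9% in WT, against 17.97 and 17.4% in DKO, a difference of 1.77 points without overlap (pooled SD 1.001). Of these transcripts 19 were tested for usage, with a median log2 change of −0.04. The class includes the abundant Hnrnpu-206, and its part in the pooled difference was not tested. The difference between these classes was not tested.

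How well a transcript can be told apart from the others of its gene was set beside the results. Of 204 tested transcripts with at least 20% unique words, the groups did not overlap in 25 higher (12.3%) and 45 lower (22.1%) shares, beside 16.0 and 15.7% of all transcripts, and the median log2 change in usage was −0.22. Of 943 with under 5%, the counts were 164 and 164 (17.4% each), with a median of −0.08. Of the 7 usage calls by edgeR, 6 were in the class under 5%, 1 between 5 and 20% and 0 at 20% or more, where 1 transcript had an unadjusted p under 0.05. Qk-202, from the gene for the RNA-binding protein Quaking, had 61.7% unique words and held 80.7 and 89.5% of Qk in WT, against 90.9 and 93.0% in DKO. Hnrnpdl-201, with 20.9% unique words, held 9.02 and 22.3% of Hnrnpdl in WT, against 23.6 and 31.1% in DKO. The DKO shares of both lay above the WT shares, against the lean of the class. Elk4-207, with 45.5% unique words, overlapped at 22.6 and 28.4% in WT, against 27.0 and 28.2% in DKO, and so did Ppp1cb-203, at 16.3 and 19.5% against 23.9 and 16.6%. The Qk, Hnrnpdl, Elk4 and Ppp1cb transcripts were named after their values were seen, as abundant transcripts with at least 20% unique words that are not the sole form of their gene.

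At the level of whole genes, 0 of 2893 parent genes were called by edgeR's quasi-likelihood F test, Benjamini-Hochberg adjusted. Over all genes 0.0544% were called higher and 0.07% lower. At an unadjusted p under 0.05, 86 (2.97%) were higher and 64 (2.21%) lower in DKO, beside 3.79 and 4.38% of all genes. DESeq2 called 4 parent genes higher (0.138%) and 7 lower (0.242%), beside 0.428 and 1.04% of all genes. The groups did not overlap in 586 higher (20.3%) and 530 lower (18.3%) parent genes, beside the 19.8 and 18.8% of all genes given above.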

How the data were processed

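The authors ran kallisto, and mm10 and GRCm38 are the builds named, per the submitters' processing notes. For its version, strand setting and transcript release, the entry is: not given in the sources used here. Per the file headers, the authors deposited estimated counts for each transcript, without scaling, and TPM, which are relative to effective length and library. The effective length, also deposited per the file headers, served as an alternative offset and gave the implied fragment length. Estimated counts divide reads among isoforms that share sequence, so shares within a gene carry the error of that split, and without a stated strand setting antisense overlaps cannot be told apart. Library preparation used Clontech's SMARTer Stranded kit for total RNA at low (Pico) input, per the labels' protocols.

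Transcripts were joined to GENCODE M21 by identifier (98.7% of 126782, with 98.3% of NMD-annotated lengths equal). A further 989 NMD-annotated transcripts of that release were not analysed here. For 73 parent genes only NMD-annotated transcripts were listed (80, of which 52 were above 0), whose share is 100% by construction. Of the M21 transcripts of the parent genes, 714 were not listed, 306 of them protein_coding, and 255 parent genes lacked at least 1. Reads of an unlisted form can be counted on a listed one, and how far this affected the NMD-annotated shares was not tested. Estimated counts were rounded to whole numbers for edgeR 4.0.16 in R 4.3.3 (filterByExpr, TMM, quasi-likelihood F test on genotype, diffSpliceDGE for usage, Benjamini-Hochberg at 0.05), with limma 3.58.1 and DESeq2 1.42.0 as alternatives. Functions were tested on simulated data. The floor was 3 counts over a group and covers counting error only.

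The named transcripts are the 10 most abundant, every called one, the 5 per direction with the smallest unadjusted usage p among those with a mean of at least 20 counts and groups apart, and the 3 most abundant of each list of parent genes. Btg1, Btg2, Upf1, Smg1, Smg5 and Upf3b were added. This gave 33 transcripts of 32 genes. Of these, 2 are not reported here. Transcripts, lists and tests were chosen with earlier results of these data known.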

Additional observations from a re-analysis of the deposited data

How the results depend on the processing

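The count of NMD-annotated transcripts called in level (0) was 20 by DESeq2 (8 higher, 12 lower) and 66 without a filter on low counts. The 7 usage calls became 0 by limma, 2 without a filter, 2 with coding and NMD-annotated transcripts only, 0 with at least 20% unique words, and 0 to 12 with a library left out, and the same 7 were called with the effective length as offset. The pooled usage calls (0) were 2 by limma, 1 without a filter and 0 to 2 with a library left out. For the 26 NMD machinery genes, library totals and no filter gave 1 call each. For parent genes (0), library totals gave 28 (27 higher), DESeq2 11 and no filter 27. Of these alternative settings, the share called over all transcripts or genes is given above for DESeq2 and limma's usage test only. Whether the other counts of calls differ from such a share was not tested. The lower NMD-annotated share of parent genes is the value without Lars2, a choice made after seeing the data: with Lars2 the difference was 2.25 points, and −2.01 to 6.51 with a library left out (−2.01 without the second WT and −0.57 without the first DKO library). The share of the library was 2.39 points higher in DKO on counts, 0.15 without Lars2, 1.56 with overlap on counts of nuclear protein-coding genes, and 0.065 on TPM, where the share was 0.225% in WT and 0.291% in DKO. The median log2 fold change was 0.23 with library totals, which move the median of all transcripts to 0.30, and −0.11 to 0.10 with a library left out (0.10 without the first WT library).

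The replicate numbers were not used as pairs, because the labels do not say what a number shares. Same-numbered libraries did not deviate together (correlation −0.09 over transcripts, −0.32 over genes). With 2 libraries per group this cannot show whether the mice were paired. A replicate block gave 0 usage calls and 5 parent genes and changed no other count of calls. The crossed pairing, chosen after seeing the data, gave 1 usage call, 1 machinery gene and 32 parent genes. For neither block is the share called over all genes given here.

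Signs turned in 11 named transcripts, none of them called in the setting concerned. With a library left out, log2 levels ran from −0.55 to 0.15 for Eef1b2-205 (0.079 with library totals), −0.027 to 0.55 for Dgka-203, −0.073 to 0.24 for Smg1-204, −0.75 to 0.17 for Ddx5-208, −0.0041 to 0.58 for Khdrbs1-202, −0.31 to 0.060 for Papola-214 (0.15 with library totals) and −0.023 to 0.51 for Pan3-208. Usage ran from −0.032 to 0.16 for Rps19-205, −0.042 to 0.41 for Dgka-203, −0.12 to 0.11 for Kbtbd11-202, −0.43 to 0.097 for Tra2b-206, −0.51 to 0.45 for Ddx5-208, −0.050 to 0.13 for Papola-214 and −0.096 to 0.65 for Pan3-208. By limma, usage was 0.082 for Rpsa-206, −0.0013 for Rps19-205 and 0.34 for Papola-214, which had 0.033 without a filter. Of the other values, 517 kept their direction and side of the threshold, 24 passed it and 54 no longer did. The 517 also include the pooled share without Lars2 with each library left out, which was judged by its pooled SD. The rest are values of named transcripts. The cause of these changes was not tested.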

Other observations

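DESeq2's level test called 4 NMD-annotated transcripts that were not at 0 in a group, and they were named after their values were seen. Naa60-201, from the gene for an N-terminal acetyltransferase of the Golgi, had 289 and 227 counts in WT, against 101 and 125 in DKO, a log2 fold change of −1.77 (SE 0.36, DESeq2 adjusted p = 0.00042). Naa60-201 made up 94.4 and 81.8% of Naa60 in WT, against 23.4 and 22.4% in DKO, it has no 31-base word of its own (0.0%), and its usage did not pass edgeR's test (adjusted p = 1.0, Benjamini-Hochberg). Rpl14-205, from a ribosomal protein gene, had 2729 and 1386 counts in WT, against 1149 and 1325 in DKO, a log2 fold change of −1.27 (SE 0.31, DESeq2 adjusted p = 0.0067). The share of Rpl14-205 was 48.4 and 19.95% against 15.3 and 18.8%, so the WT libraries stood further apart than the second WT library and DKO. The others were Chd9-203 and Tmem62-206, the latter with 40.1 and 27.7 counts in WT, against 0 and 0.90 in DKO.

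Where the NMD-annotated transcript is the only one listed for its gene, its count is that of the gene. For Trat1 and Dnajc15, M21 also holds a coding transcript that was not listed. Which form the reads came from was not tested. Trat1-201, listed alone for the gene of a T cell receptor-associated adaptor, had 323 and 235 counts in WT, against 442 and 534 in DKO, a log2 fold change of 0.24 (SE 0.17) after TMM scaling. Dnajc15-201, listed alone for a mitochondrial co-chaperone gene, had 188 and 204 counts in WT, against 276 and 360 in DKO, a log2 fold change of 0.09 (SE 0.23). Neither was called by edgeR or DESeq2.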
